A study of Mus musculus with 629 samples.

Results

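The cytosolic ribosome of the mouse is built from ribosomal RNA and a set of ribosomal proteins, whose genes were picked out of the count table by symbol: Rpl or Rps followed by a number, with Rplp0, Rplp1, Rplp2 and Rpsa added and with the Rps6k kinases and rows named as pseudogenes left out. This took 89 of 53546 gene rows, 36 of the small and 53 of the large subunit. In the GENCODE M21 annotation 83 of the 89 were protein-coding and 6 were pseudogenes in spite of their symbols (Rps4l, Rps12l1, Rpl32l, Rpl6l, Rps3a2 and Rps3a3). The small subunit reads the mRNA and the large subunit joins the amino acids. Because each ribosome carries a single copy of most of these proteins, cells keep the supply of the proteins close to balance, in part through a pyrimidine-rich start of their mRNAs that ties translation to nutrient signalling. The genes are spliced, and their mRNAs have left many processed pseudogenes, inserted copies without introns, across the mouse genome.

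The study compared brain macrophages and microglia of adult C57BL/6 mice that were Notch3 knockout (KO), heterozygous (Het) or wild-type (WT). Notch3 encodes a receptor best known from the smooth muscle and pericytes of blood vessels. All 3 genotypes came from a reporter line, SM22-Cre;Rosa26-stop-tdTomato, in which a smooth muscle promoter drives Cre and Cre switches on a red fluorescent protein, and single cells were sorted into multi-well plates and sequenced over the full length of their mRNAs with SMART-seq2. There were 400 macrophages (119 KO, 70 Het and 211 WT), 215 microglia (78 KO, 58 Het and 79 WT) and 14 cells of a type named only 7, on 6 plates. The labels tied no cell to an animal. Each genotype of a cell type was therefore taken as 1 sample without a replicate, genotypes were not tested against each other, and values carry counting intervals or the spread over plates and cells. The cells of 1 genotype and cell type on 1 plate are called a pool, and each cell type had 8: KO on plates 060s and 524s, Het on 056s, 524s and 529s, and WT on 059s, 529s and 530s.

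Gene counts per cell, with the ribosomal RNA gene Rn18s and the ERCC spike-ins set aside, ran from 1488 to 2107020 with a median of 213524. Rn18s made up 40.4% of gene counts. The median of its share over cells lay between 13.8% in the Het macrophages of plate 056s and 55.9% in the Het microglia of plate 529s. Plate 056s also held 85.7% of the ribosomal protein counts of Het macrophages, so that summed Het values rest largely on that plate. Each pool was of 1 sex by Xist and Ddx3y: KO on 524s, Het on 529s and WT on 530s had Xist at 579 CPM or more, and in every other pool it was at 8.81 CPM or less. Each genotype thus held pools of both sexes and so cells of more than 1 animal, but how many animals a pool held is not given in the sources used here. On the 2 plates that held a pair of genotypes, 524s and 529s, genotype and sex therefore cannot be told apart. Of 12 macrophage markers 7 were at least 1.5-fold higher in macrophages in all 8 pools, and of 12 microglia markers 11 were lower there. The mural cell and endothelial lists summed to 102 and 87.7 CPM or less in every pool. Other lists reached more: oligodendrocyte markers summed to up to 1645 CPM in macrophage and 648 CPM in microglia pools. Astrocyte markers reached 256 and 362 CPM, and monocyte and neutrophil markers 79.9 and 431 CPM. The macrophage markers summed to 8251 to 17539 CPM in microglia pools, against 25211 to 37321 CPM in macrophage pools. Notch3 itself had 2 counts in 1 of 119 KO macrophages, 0 counts in 70 Het macrophages and 77 counts in 1 of 211 WT macrophages, so it gave no check of the genotypes.

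Ribosomal protein genes held 652235 of 189723805 gene counts, or 0.344% (exact 95% interval 0.343 to 0.345%, which covers counting error only, since reads without molecular identifiers can be PCR copies). A few genes carried most of this. Levels are given as counts per 1000000 gene counts without Rn18s (CPM), and where no cell type is named they are the mean of the summed macrophage and the summed microglia level. Different genes are compared per kilobase of 1 chosen annotated transcript each, so their order depends on its length. The transcript taken for Rps3 has 1908 bases, 729 of them coding, and that for Rpl4 has 1538, 1257 of them coding. Rpl4, whose protein lines the tunnel through which the new peptide leaves, had 585 CPM. Rps3, at the mRNA entry channel, had 358 CPM, and Rplp0, the base of the stalk that recruits elongation factors, had 233 CPM. Rpl8, near the site of peptide bond formation, had 221 CPM, and Rps9, at the mRNA entry, had 216 CPM. The 6 genes with most counts held 53.0% of all ribosomal protein counts. Per kilobase of these transcripts the highest level was that of Rpl4 at 381 CPM, and Rps9 had 288, Rpl8 260 and Rps14 219 CPM. At the other end Rpl3l stood lowest, at 0.0125 CPM per kilobase. With Rpl3l, Rpl10l and Rpl39l set aside, Rpl23a was lowest at 0.511. Rpl24 stood at 0.742, Rps23 at 0.855 and Rps6, the target of S6 kinase, at 1.45. Of the 83 protein-coding genes 33 reached 20 CPM, 43 lay between 1 and 20 CPM and 7 below 1 CPM.

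The level of a gene was correlated with how much of its coding sequence is found nowhere else among annotated genes. The coding sequence of each gene was cut into 50-base windows, and each window was looked up in all GENCODE M21 transcripts of other genes. The 29 genes with no unique window had a median of 6.46 CPM per kilobase and held 5.07% of ribosomal protein counts. The 30 genes with up to 20% unique windows had a median of 22.8, the 9 genes with 20 to 50% a median of 69.2, and the 15 genes with over 50% a median of 88.7 CPM per kilobase. Those 15 genes held 56.7% of the counts. Across the 83 genes, which share their libraries and are not replicates, Spearman's rho between the unique share and CPM per kilobase was 0.62, against 0.14 for coding length. There were exceptions in both directions: Rpl41, the shortest ribosomal protein, reached 59.2 CPM per kilobase with no unique window, while Rpl3l, Rpl10l and Rpl39l were 87.5% unique or more and stood at 0.823 CPM per kilobase or less. How the authors treated reads that align to several places was not given in the sources used here, and its part in these levels was not tested.

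**Figure D1:**
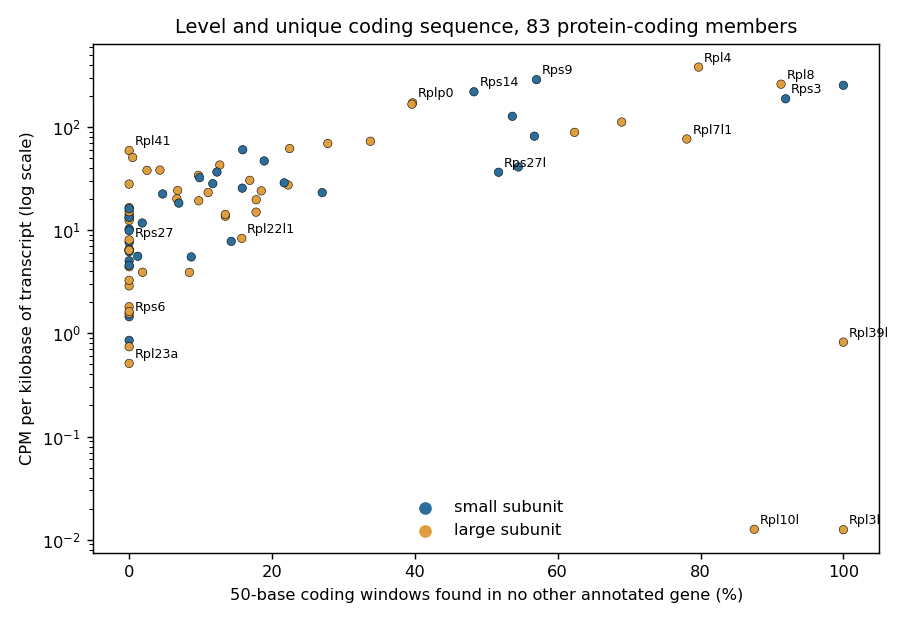
Level of the 83 protein-coding ribosomal protein genes (mean of macrophages and microglia, CPM per kilobase of transcript, log scale) against the percentage of their 50-base coding windows found in no other annotated gene. Blue points are small-subunit and orange points large-subunit genes. Genes with no unique window spread from 0.511 to 59.2, and Rpl4 stands highest at 381.

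The likeness of genes and copies can be read from the first 60 coding bases. They are shown for well counted genes and their closest copies, for a pair in which the copy had more counts than the gene, and for a gene of very low count. All are as in the GENCODE M21 transcripts (GRCm38). Capitals mark the bases that differ within a pair. Gm5835, Gm8730 and Gm10132 are processed pseudogenes on chromosomes 1, 8 and 14, and Rps27rt is a gene on chromosome 9 annotated as protein-coding. In GRCm38 the genes themselves lie at chr9:64173375-64178666 (Rpl4), chr5:115559467-115563727 (Rplp0), chr3:90212522-90213651 (Rps27) and chr11:78180932-78183584 (Rpl23a).
Rpl4: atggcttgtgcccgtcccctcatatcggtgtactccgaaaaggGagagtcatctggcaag
Gm5835: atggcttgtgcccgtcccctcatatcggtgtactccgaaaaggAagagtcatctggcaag
Rplp0: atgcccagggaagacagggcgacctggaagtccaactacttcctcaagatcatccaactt
Gm8730: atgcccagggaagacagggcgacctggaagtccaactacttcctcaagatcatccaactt
Rps27: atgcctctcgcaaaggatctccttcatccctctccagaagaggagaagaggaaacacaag
Rps27rt: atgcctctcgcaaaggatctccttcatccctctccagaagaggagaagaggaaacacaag
Rpl23a: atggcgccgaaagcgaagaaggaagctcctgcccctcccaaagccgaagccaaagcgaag
Gm10132: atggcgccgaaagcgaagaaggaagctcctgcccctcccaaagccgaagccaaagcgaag
In this stretch Rpl4 and its copy differed at 1 base and the 3 other pairs at 0 bases.

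In all 994 annotated genes or pseudogenes matched at least 80% of a ribosomal protein coding sequence at 90% identity or more, and 948 of them were rows of the count table. Only 6 protein-coding members had no such copy. The copies together held 4.97% as many counts as the ribosomal protein genes in macrophages and 5.38% as many in microglia. The highest copy was Rps27rt, identical in coding sequence to Rps27, which encodes a zinc finger protein of the small subunit. Rps27rt had 28.7 CPM and Rps27 2.63 CPM. In KO macrophages Rps27rt had 100 CPM on plate 060s and 19.1 CPM on plate 524s, in Het macrophages 29.6 to 37.2 CPM and in WT macrophages 13.5 to 38.2 CPM. In KO microglia it had 71.4 CPM on plate 060s and 16.9 CPM on plate 524s, in Het microglia 19.5 to 23.4 CPM and in WT microglia 10.9 to 29.3 CPM. Every macrophage and every microglial cell of plate 060s had a count of Rps27rt, and the cell with most counts held 3.19% of those of its macrophages and 5.78% of those of its microglia. The high level was that of plate 060s, whose pools were all KO, and the KO pools of plate 524s did not share it.

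The share of all counts that went to ribosomal protein genes was lower in KO and in Het than in WT macrophages in every pool, while single cells overlapped widely. It was 0.305% in KO macrophages (exact 95% interval 0.302 to 0.308%), 0.290% in Het (0.288 to 0.291%) and 0.404% in WT (0.402 to 0.405%). By pool it was 0.295 and 0.334% in KO, 0.286, 0.316 and 0.313% in Het, and 0.359, 0.393 and 0.429% in WT. All 5 KO and Het pools lay below all 3 WT pools. The log2 ratio was -0.40 for KO over WT, -0.48 for Het over WT and 0.07 for KO over Het, the last of which turned to -0.35 with Rn18s kept in the total. The median over single cells was 0.306% in KO, 0.299% in Het and 0.373% in WT macrophages, a smaller difference than that of the sums. In microglia the share was 0.316% in KO (0.313 to 0.318%), 0.314% in Het (0.311 to 0.316%) and 0.363% in WT (0.361 to 0.366%). The KO pools of microglia were at 0.301 and 0.328%, the Het pools at 0.308, 0.287 and 0.341%, and the WT pools at 0.346, 0.330 and 0.444%. Here the KO pools were below the WT pools by a narrow margin, the Het pools overlapped them, and the log2 ratios over WT were -0.20 and -0.21.

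The difference was not even over plates or genes. On plate 529s, which held Het and WT cells, the log2 ratio of Het over WT was -0.33 in macrophages and 0.05 in microglia. On plate 524s, which held KO and Het cells, KO over Het was 0.08 in macrophages and 0.19 in microglia. By the median over single cells, Het over WT on plate 529s was smaller, at -0.12 in macrophages and -0.013 in microglia. KO over Het on plate 524s was then 0.13 and 0.25. No plate held KO and WT pools together, so for them genotype and plate cannot be told apart. The highest share in both cell types was that of plate 530s. Plates of the same genotype differed too, with WT microglia at 0.444% on plate 530s and 0.330% on plate 529s. The 6 top genes carried much of the difference: without them KO over WT was -0.20 in macrophages and 0.026 in microglia. The 29 genes with no unique coding window made up 0.0163% of counts in KO macrophages, 0.0163% in Het and 0.0165% in WT. The 15 genes with over 50% unique windows made up 0.172% in KO, 0.161% in Het and 0.233% in WT macrophages. In sums of this kind less ribosomal protein mRNA and more of other mRNA cannot be told apart. Immediate early and dissociation stress genes, which respond to the handling of cells, were lowest in KO among macrophages and lowest in Het among microglia: the 17 genes summed to 677 CPM in KO, 1450 CPM in Het and 1606 CPM in WT macrophages, and to 1043 CPM in KO, 910 CPM in Het and 1766 CPM in WT microglia. Their pools ran from 527 to 5012 CPM in macrophages and from 845 to 4741 CPM in microglia, and their part in the ribosomal protein share was not tested. With Rn18s kept in the total the share of macrophages was 0.170% in KO, 0.217% in Het and 0.217% in WT.

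**Figure D2:**
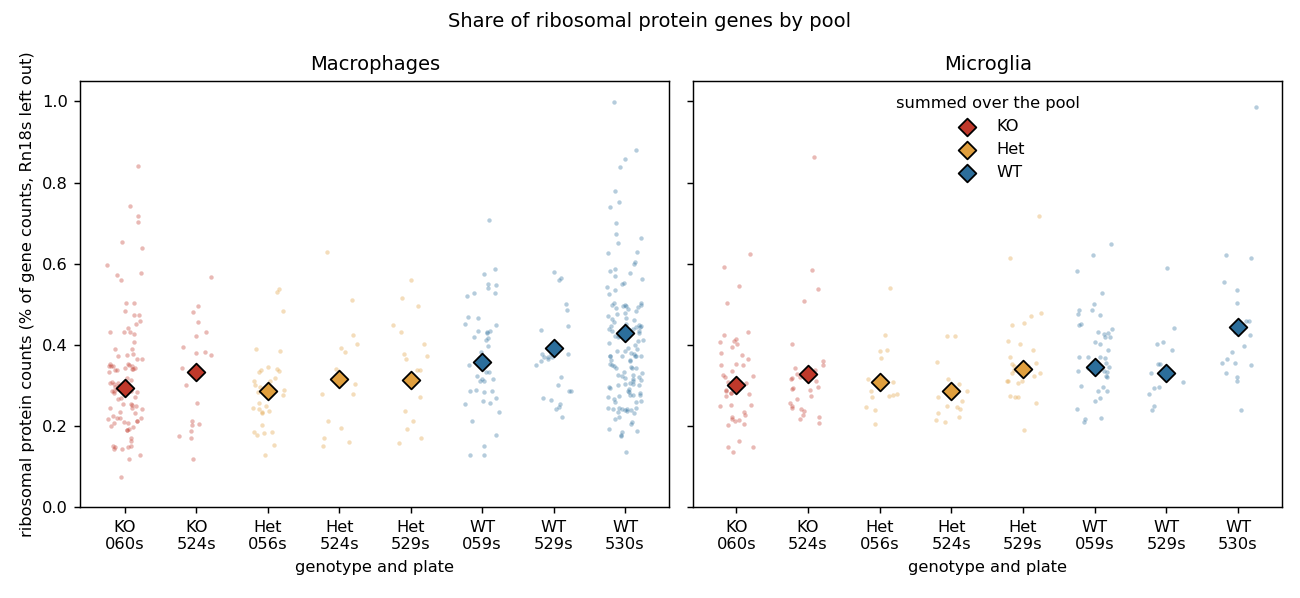
Counts of ribosomal protein genes as a percentage of gene counts without Rn18s, for each cell (small points) and summed over each pool (diamonds), by genotype and plate, in macrophages (left) and microglia (right). All KO and Het diamonds of macrophages, at 0.286 to 0.334%, lie below the WT diamonds at 0.359 to 0.429%, and single cells overlap widely.

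Single genes were compared where 1 genotype showed both a level of 20 CPM and counts in 25% of its cells. In macrophages 36 of the 89 genes passed, and in microglia 38, or 37 where Het and WT alone were compared. The others were too low for a comparison of genotypes. A gene was called apart in KO if its CPM + 1 differed from that of WT and from that of Het by at least 1.5-fold in the same direction and all KO pools lay on 1 side of the 6 other pools. Het was set against WT alone in the same way. No ribosomal protein gene was apart in KO macrophages, against 0.839% of all measured genes that were higher and 1.64% that were lower. None was apart in KO microglia either, against 1.251% higher and 0.971% lower. Over the 36 genes of macrophages the median log2 ratio of KO over WT was -0.37 with 31 genes below 0, against a median of -0.06 over all 5483 measured genes. That of KO over Het was 0.16 with 14 genes below 0, against -0.07 over all genes. In microglia the medians were -0.10 for KO over WT with 22 of 38 genes below 0, against -0.04 over all genes, and 0.16 for KO over Het, against 0.01.

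A rule between genotypes with no limit on the fold was added after the shares by pool had been seen. Its counts are therefore not independent of those shares. By this rule all KO pools lay below all WT pools for 13 of 36 genes in macrophages (36.1%, against 13.1% of all measured genes). They lay above them for 1, Rps24 (2.78%, against 9.05%). Among the 13 were Rps2, Rps3, Rps3a1, Rps4l, Rps4x, Rps9, Rps18, Rps19, Rpl13a, Rpl14, Rpl18 and Rplp0. All KO and all Het pools lay below all WT pools for 5 genes, Rps3a1, Rps4l, Rps18 and Rpl14 among them, 13.9% of the 36 genes against 2.44% of all genes, and above them for 0 (against 1.11%). Against Het alone, KO pools were below for Rps4x, Rps9 and Rpl41 (8.33%, against 8.86%) and above for 5 genes, among them Rps4l, Rps20, Rps24 and Rpl6 (13.9%, against 8.46%). In microglia KO lay below WT in all pools for 4 of 38 genes, Rpl4, Rpl7, Rpl8 and Rps9 (10.5%, against 7.18%), and above for Rps15a and Rps24 (5.26%, against 9.76%). KO and Het lay below WT for Rpl7 and Rps9 (5.26%, against 1.74%) and above for 0 (against 1.82%). KO lay below Het for Rpl7 (2.63%, against 6.64%) and above it for Rps20, Rps24, Rpl3, Rpl14 and Rpl30 (13.2%, against 9.54%). Counts of this kind in macrophages depended on the scaling: all KO pools lay below WT for 8 genes with edgeR's TMM factors (22.2%, against 10.6% of all genes) and for 7 with DESeq2's size factors (19.4%, against 10.2%). Leaving out a plate loosens the rule for every gene, and it was met by 20 members without plate 059s (54.1%, against 17.1% of all genes) and by 22 without plate 524s, where KO had 1 pool left (57.9%, against 22.7%). Without plate 060s, where KO also had 1 pool left, 16 of 37 met it (43.2%, against 34.5%). It was met by 13 of 35 without plate 529s (37.1%, against 23.6%) and 14 of 37 without plate 530s (37.8%, against 20.9%). Without plate 056s it was met by 13 of 37 (35.1%, against 13.2%). The share of members below in macrophages was above that of all genes under each of these settings. The gap was smaller with TMM or DESeq2 factors and without plate 060s, 529s or 530s. In microglia the share was 10.5% against 7.18% for KO below WT, and 5.26% against 1.74% for KO and Het below WT. These other settings were not tried for this rule in microglia.

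Between Het and WT, 9 of 36 genes were apart in macrophages, all lower in Het (25%, against 3.64% of all measured genes that were lower and 2.36% that were higher). The count was 5 of 36 with edgeR's TMM factors (13.9%, against 2.94% lower over all genes), 4 of 36 with DESeq2's size factors (11.1%, against 2.65%) and 1 of 25 with Rn18s kept in the total (4%, against 0.99%). Among the 9 were Rps3a1, Rps4l, Rps18, Rps20, Rpl3, Rpl6 and Rpl7, of which Rps4l, Rps18 and Rpl6 were apart with either set of factors. Rps18, which sits in the head of the small subunit, had 13.8 and 13.5 CPM in the KO pools, 10.8, 9.31 and 14.5 CPM in the Het pools and 21.9, 22.4 and 27.5 CPM in the WT pools, and Het over WT was -1.14. In microglia the same gene showed no such order: its pools had 21.2 and 27.8 CPM in KO, 20.9 to 23.9 CPM in Het and 18.7 to 29.1 CPM in WT. Rpl6, a large-subunit protein of eukaryotes, had 19.5, 18.6 and 18.6 CPM in Het and 42.7, 30.7 and 32.4 CPM in WT macrophages, a log2 ratio of -0.84, and 23.3 and 39.1 CPM in KO. Rps3a1 had 21.5, 23.9 and 26 CPM in Het and 31.2, 31.9 and 39 CPM in WT macrophages, a log2 ratio of -0.69. Rps4l, the pseudogene-annotated relative of Rps4x, had 10.5, 2.02 and 11.2 CPM in Het and 55.1, 24.8 and 23.7 CPM in WT macrophages, a log2 ratio of -1.66, with counts in 21.4% of Het and 25.6% of WT cells. Over all 36 genes the median of Het over WT was -0.56, against 0.02 over all measured genes, and on plate 529s alone it was -0.28.

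The 3 highest ratios of Het over WT in macrophages belonged to Rps27l at 0.50, Rpl27a at 0.40 and Rpl41 at 0.36, none of them apart. The value of Rps27l was -0.13 without plate 056s. In microglia only Rps24 was apart between Het and WT, 1 of 37 genes (2.70%, against 2.85% of all measured genes), with Het lower at -0.78. None was higher, against 2.61% of all genes. The median over the 37 genes was -0.26 with 27 below 0, against -0.04 over all genes, but on plate 529s alone the median over 38 genes was 0.26. Highest among microglia were Rps15a at 0.72, Rpl22 at 0.45 and Rpl13a at 0.15, and Rpl22 turned to -0.65 without plate 059s.

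**Figure D3:**
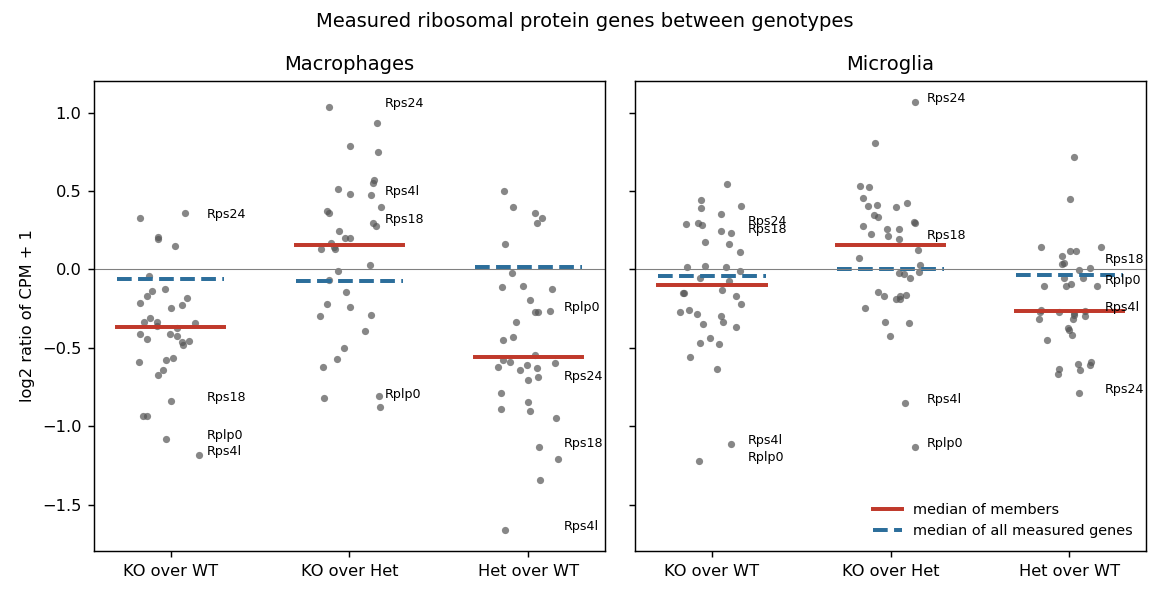
Log2 ratios of CPM + 1 between genotypes for the measured ribosomal protein genes (points) in macrophages (left) and microglia (right), with the median of these genes (red line) and of all measured genes (blue dashed line). In macrophages the red line lies at -0.37 for KO over WT and -0.56 for Het over WT, below the blue lines at -0.06 and 0.02.

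Rplp0 had the lowest mean ratio of KO to the other genotypes in both cell types, and its level went with the plate. Its macrophage pools had 134 CPM (060s) and 136 CPM (524s) in KO, 260 CPM (056s), 106 CPM (524s) and 88.9 CPM (529s) in Het, and 280 CPM (059s), 146 CPM (529s) and 310 CPM (530s) in WT. The microglia pools had 136 CPM (060s) and 96 CPM (524s) in KO, 326 CPM (056s), 105 CPM (524s) and 120 CPM (529s) in Het, and 237 CPM (059s), 108 CPM (529s) and 461 CPM (530s) in WT. The log2 ratio of KO over WT was -1.08 in macrophages and -1.22 in microglia, and the mean of the ratios over WT and over Het, -0.95 and -1.18, was -0.31 and -0.62 without plate 056s. The 10 pools of plates 060s, 524s and 529s, of all 3 genotypes, lay at 88.9 to 146 CPM, and the 6 pools of plates 056s, 059s and 530s, Het and WT, at 237 to 461 CPM. Since KO pools came only from the plates of low Rplp0, genotype and plate cannot be told apart for this gene, and WT pools of a low plate stood at the KO level.

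The same plates differed in the annotated copies of Rplp0. Gm9625 and Gm8730, which are 97.4 and 98.7% identical to the Rplp0 coding sequence, had 0.708 CPM or less in every pool of plates 056s and 530s and 7.92 to 39.3 CPM in all other pools. As a percentage of the counts of Rplp0 and its 5 copies, the copies took 0.531% in Het macrophages and 0.569% in Het microglia of plate 056s, and 0.527% in WT macrophages and 0.433% in WT microglia of plate 530s. On plate 060s they took 12.3% in KO macrophages and 13.1% in KO microglia, and on plate 059s 14.8% in WT macrophages and 13.9% in WT microglia. On plates 524s and 529s they took 29.9 to 37.7% in KO, Het and WT pools alike. The value went with the plate in both cell types and in whichever genotypes the plate held. With the copies added, Rplp0 still stood at 132 to 220 CPM on plates 060s, 524s and 529s and at 261 to 463 CPM on the other plates. With Rplp0 left out of the ribosomal protein share, the log2 ratio of KO over WT was -0.36 in macrophages and -0.15 in microglia.

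**Figure D4:**
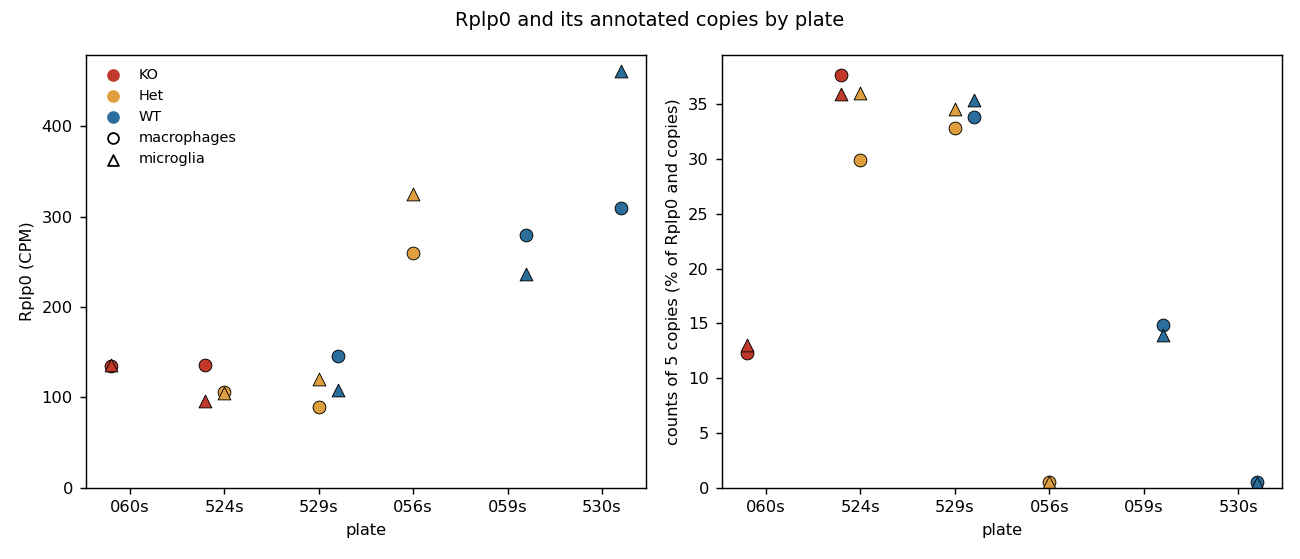
Left, Rplp0 level of each pool (CPM) by plate. Right, counts of the 5 annotated copies of Rplp0 as a percentage of the counts of Rplp0 and copies together. Colours stand for KO, Het and WT, circles for macrophages and triangles for microglia. Pools of a plate stand together in the right panel, from 0.433 to 0.569% on 056s and 530s up to 37.7% on 524s.

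Rps24, a small-subunit protein gene mutated in some human families with Diamond-Blackfan anaemia, had the highest mean ratio of KO to the other genotypes in both cell types. In macrophages its pools had 54.2 and 44.9 CPM in KO, 24, 18.2 and 40.2 CPM in Het and 42.3, 32.7 and 41.4 CPM in WT. In microglia they had 81.1 and 68.9 CPM in KO, 29.9, 37.3 and 47.2 CPM in Het and 63.9, 50.5 and 57 CPM in WT. KO pools were above the 6 other pools in both cell types, and in microglia Het pools were also below WT pools. How many of all genes met these full orders was not counted. KO pools were above all WT pools for 9.05% of all measured genes in macrophages and 9.76% in microglia, and above all Het pools for 8.46 and 9.54%. The log2 ratios of KO over WT were 0.33 in macrophages and 0.28 in microglia, under the limit of the call, and those of KO over Het were 1.03 and 1.07. In macrophages the order rested on few cells: 1 cell held 46.9% of the Rps24 counts of the KO macrophages of plate 524s. Without the top cell of each pool the lowest KO pool of macrophages was at 25.7 CPM, against 39.1 CPM in the highest of the others. In microglia the same step left the lowest KO pool just below, at 57.3 CPM against 58.7 CPM. The median over cells was 25.3 and 21.2 CPM in KO macrophages, against 14.1 to 36.3 CPM in Het and 20.8 to 28.3 CPM in WT. Of 8 alternative settings that give the pools other values, KO pools were above all others in 4 in each cell type, and not with Rn18s kept, with the mean of the cells' own CPM, with cells thinned to 50000 counts or without the top cell.

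Other genes named by their ratios were not apart. In KO macrophages Rps20, in the head of the small subunit, had 39.5 and 36.3 CPM, against 20.8 to 22 CPM in Het and 25.7 to 37.6 CPM in WT. The stalk protein gene Rplp2 had 32.8 and 46 CPM in KO, against 19.4 to 43.5 CPM in Het and 23.2 to 46.1 CPM in WT macrophages, and its mean log2 ratio of 0.35 was 0.04 without plate 056s. Both sets overlapped WT. Lower in KO macrophages were Rps4x, at 20 and 24.7 CPM against 25.7 to 33.6 CPM in Het and 33.1 to 45.9 CPM in WT, and Rpl18, at 18.4 and 12.6 CPM against 14.9 to 48.6 CPM and 20.4 to 31.3 CPM. Rps4x, the X-linked form of Rps4, was thus below both other genotypes in every KO pool, at log2 ratios of -0.93 over WT and -0.39 over Het. In KO microglia Rpl3, close to the catalytic site, had 71.7 and 73.6 CPM, against 43.7 to 64.4 CPM in Het and 35.2 to 95.3 CPM in WT. Rpl7 had 50.4 and 49.1 CPM in KO microglia, against 53.5 to 67.3 CPM in Het and 72.9 to 95 CPM in WT, and its 3 genotypes did not overlap. How many of all genes met the orders of Rps4x and Rpl7 was not counted. Rpl10a, of the mobile stalk at the tRNA exit site, overlapped, with 70.6 and 49.3 CPM in KO, 23 to 59.9 CPM in Het and 46.6 to 72.7 CPM in WT microglia.

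In the ribosomal protein share macrophages and microglia differed little. The ratio of macrophages over microglia was -0.05 in KO, -0.11 in Het and 0.15 in WT on the log2 scale, with Het at 0.13 and WT at -0.03 once Rn18s was kept in the total. Of the 8 plate and genotype pairs 4 were above 0. No ribosomal protein gene was at least 1.5-fold apart in each of the 8 pairs, against 0.867% of 6230 measured genes that were higher in macrophages and 3.26% that were lower. With no limit on the fold, members higher in macrophages in all 8 pairs numbered 0 (against 5.47% of all genes). Rps24 was the sole member lower in macrophages in all 8 pairs (2.78%, against 6.98% of all genes), at a mean log2 ratio of -0.54. Rpl10a at -0.65 and Rpl10, which completes the large subunit late in its assembly, at -0.60 were lower on average. Rpl22, whose loss in mice mainly affects T cells, was at 0.73, Rps27l at 0.55 and Rpl41 at 0.42. The median over the 36 measured genes was 0.13 with 27 above 0, against 0.01 over all genes. By genotype it was -0.0019 in KO with 18 genes above 0, -0.08 in Het with 14 above 0 and 0.23 in WT with 29 above 0, so that the tilt lay in the WT sums. These sums weigh the plates unlike: plate 530s held 63.2% of the ribosomal protein counts of WT macrophages, and plate 059s 65.2% of those of WT microglia. Paired by plate, the log2 ratio of the WT share was 0.055 on 059s, 0.25 on 529s and -0.05 on 530s.

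The SD of log2 CPM over the 16 pools had a median of 0.41 over 34 members of at least 20 CPM, against 0.76 over all 6541 genes of at least 20 CPM, which were not matched to the members in level. As a share of the ribosomal protein counts, the most even genes were Rps9 with an SD of 0.18, Rps3 with 0.19 and Rpl4, Rpl7 and Rps3a1 with 0.23 on the log2 scale. Rps3 took between 8.62 and 13.0% of ribosomal protein counts in any pool, and Rpl4 between 12.3 and 22.8%. The least even were Rps4l with 0.98, Rpl22 with 0.72, Rpl10 with 0.71, Rpl10a with 0.70 and Rplp0 with 0.67. Rpl22 took from 0.455% in WT microglia of plate 059s to 3.64% in Het macrophages of plate 524s. Rpl10 had counts in 30.25% of macrophages and 49.8% of microglia, so its level rested on fewer cells than that of Rps9, found in 99.5% of macrophages and in 100% of microglia.

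A number of ribosomal proteins have a second, related gene, a paralogue. Rpl7l1 was the highest, and its balance with Rpl7 differed between the summed cell types but not in every pool: it took 51.4% of the counts of the pair in macrophages and 64.3% in microglia. By genotype it took 59.2% in KO (exact 95% interval 57.4 to 61.0%), 54.7% in Het and 47.6% in WT macrophages, and 70.6% in KO, 66.0% in Het and 58.7% in WT microglia. The pools of macrophages were at 65.5 and 39.4% in KO, 50.7, 70.2 and 70.7% in Het and 44.7, 45.1 and 49.6% in WT, and those of microglia at 72.2 and 69.2% in KO, 67.1, 72.8 and 58.5% in Het and 62.9, 43.5 and 49.8% in WT. KO pools of microglia were above all WT pools, and those of macrophages were on both sides of them. Within a plate and genotype macrophages were below microglia in 6 of 8 pairs, by 49.6 against 49.8% in WT on plate 530s, and above them on plate 529s in Het (70.7 against 58.5%) and in WT (45.1 against 43.5%). Rpl7l1 was found in 53.75% of macrophages and 72.1% of microglia, and Rpl7 in 93.75% of macrophages and 95.3% of microglia. Thinned to 50000 counts per cell, Rpl7l1 was found in 43.5% of macrophages and 66.8% of microglia, and macrophages were below microglia in 7 of 8 pairs, with Het on plate 529s the other way at 70.6 against 61.5%. Of the cells of both types, 35 were too shallow to thin.

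Rpl22l1 took 8.52% of its pair with Rpl22 in KO, 5.10% in Het and 7.37% in WT macrophages, and 16.1% in KO (13.9 to 18.4%), 5.34% in Het and 8.58% in WT microglia. The KO microglia pools were at 8.85 and 24.2% and the WT microglia pools at 16.3, 1.94 and 6.67%, which overlap, and 1 cell held 45.5% of the Rpl22l1 counts of the KO microglia of plate 524s. Rps4l took 40.3% of its pair with Rps4x in KO, 26.3% in Het and 45.0% in WT macrophages, and 29.0, 47.4 and 45.5% in KO, Het and WT microglia. The order of the genotypes thus was not the same in the cell types. Rps27l, a paralogue induced by p53, took 90.9% of its pair with Rps27 in macrophages and 82.9% in microglia. With the copies of both genes counted in, Rps27rt among them, Rps27l took 38.1 and 34.0%, so that the balance of this pair depends on whether the copies are counted. Rpl39l took 14.7% of its pair in WT macrophages, but 59.3% of its counts came from 1 cell. The paralogues Rpl10l, known from testis, and Rpl3l, known from muscle, had 0.157 CPM or less in every pool.

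**Figure D5:**
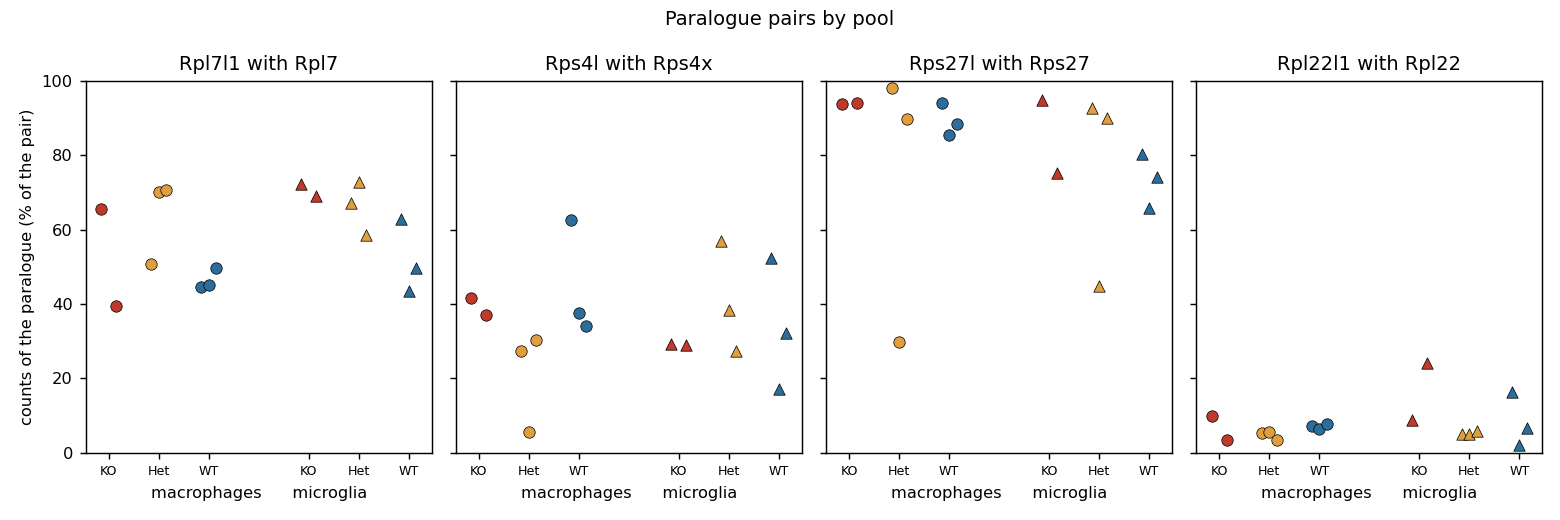
Counts of a paralogue as a percentage of the counts of the paralogue and its partner, for each pool, by genotype (KO, Het and WT from left to right) in macrophages (circles) and microglia (triangles). Rpl7l1 stood at 39.4 to 72.8% and Rpl22l1 at 1.94 to 24.2%. The low Rps27l value of Het macrophages, 29.8%, is that of plate 524s, where 1 cell held all Rps27 counts.

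The starts of ribosomal protein mRNAs are known for a run of pyrimidines. In RefSeq start windows (GRCm38.p6, 15 bases before to 15 bases after each annotated start, read on the transcribed strand), 64 members had an entry. An unbroken run of at least 7 C or T bases that reached within 5 bases of the start was found in 30 of them (46.9%), against 15.7% of all 27025 genes with an entry. The windows are shown for Rps24 (highest ratio of KO to the other genotypes), Rps9 (most even over pools), Rps18 (lower in Het macrophages), Rpl4 (highest level) and Rplp0 (linked to the plate), with the run in capitals. They lie at chr14:24490663-24490692 (plus strand), chr7:3704026-3704055 (plus), chr17:33955651-33955680 (minus), chr9:64173372-64173401 (plus) and chr5:115559452-115559481 (plus).
Rps24: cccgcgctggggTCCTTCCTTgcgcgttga
Rps9: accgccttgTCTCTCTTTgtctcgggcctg
Rps18: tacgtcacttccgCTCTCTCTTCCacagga
Rpl4: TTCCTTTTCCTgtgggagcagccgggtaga
Rplp0: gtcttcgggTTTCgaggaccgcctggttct
The run was 9 bases long in Rps24 and in Rps9, 11 in Rps18 and Rpl4 and 4 in Rplp0, which bears on the annotated start alone and not on the starts used in these cells.

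Genes that work with the ribosome were taken from lists, whose medians are over the genes of at least 5 CPM. Rack1, a scaffold on the small subunit, had 273 CPM in KO, 189.5 CPM in Het and 389 CPM in WT macrophages, and 281, 207 and 288 CPM in KO, Het and WT microglia. The 7 translation elongation factor genes had a median log2 ratio of -0.11 for KO over WT and -0.37 for Het over WT in macrophages, and of -0.19 and -0.13 in microglia, with 0 genes apart. Eef2, which moves the ribosome along the mRNA, had 910 CPM in KO, 582 CPM in Het and 906 CPM in WT macrophages, and Eef1a1, which delivers tRNA, 831, 644 and 834 CPM. Of 24 measured initiation factor genes of macrophages 1, Eif1, was lower in KO (against 1.64% of all measured genes), at 35.9 CPM against 61.9 CPM in Het and 62.8 CPM in WT, and Eif6, Eif3f and Eif3c were lower in Het than in WT (against 3.64% of all genes). Eif3f had 141 CPM in Het and 248 CPM in WT macrophages. Of 26 measured in microglia, Eif4b alone was lower in Het (against 2.85% of all genes), at 127 CPM against 226 CPM in WT, and none was apart in KO. The median of initiation factors for KO over WT was -0.09 in macrophages and -0.18 in microglia.

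Of the 15 measured ribosome biogenesis genes of macrophages, Npm1, a nucleolar chaperone, and Polr1d, a subunit of RNA polymerases I and III, were lower in Het macrophages (against 3.64% of all genes). Npm1 had 19.9 CPM in Het and 45.3 CPM in WT. Rrn3, which starts transcription of ribosomal RNA genes, was higher in KO microglia, at 67.5 CPM against 41.3 CPM in Het and 17.7 CPM in WT, 1 of 19 measured (against 1.251% of all genes). Of the same 19, Nob1, Pes1, Gnl3 and Polr1c were lower in Het than in WT microglia (against 2.85% of all genes). The list's median for KO over WT was -0.26 in macrophages and -0.30 in microglia. No gene of the TOR pathway, which controls translation of ribosomal protein mRNAs, was apart in KO (against 0.839 to 1.64% of all genes, by cell type and direction). Of 18 measured, 1, Lamtor3, was lower in Het microglia (against 2.85% of all genes). The median log2 ratio of KO over WT for that list was -0.34 in macrophages and -0.05 in microglia.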

How the data were processed

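The authors deposited a table of whole-number counts per gene and cell, with no normalization. Per the submitters' processing notes reads were aligned with STAR. The version of STAR, the genome build and annotation, the program that counted reads and how it treated reads aligning to several places are not given in the sources used here. The 629 columns were matched to the labels by name, and none was identical to another. ERCC counts, 1.22% of the total, and Rn18s were left out of totals.

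For each genotype, and each pool of at least 10 cells, counts were added up and scaled to CPM in Python 3.11.15 (pandas 2.3.3, numpy 2.4.6, scipy 1.17.1, matplotlib 3.10.9). Ratios were formed on CPM + 1. Scaling factors of edgeR 4.0.16 and DESeq2 1.42.0 (R 4.3.3) served as alternatives. The share of a summed total carries an exact (Clopper-Pearson) 95% interval. Copies were matched in GENCODE M21, in which 50067 symbols were found, and had to be matched over at least 50% of their own exons. Genes were named as the 5 largest of those apart in each direction, or the 3 largest ratios where none was apart, with the most and least even 5, the 5 highest per kilobase and all paralogues. Genes of the opening levels and the other pools were chosen after their values were seen. The members, lists and tests were chosen with earlier results of these data known. Exons of 38 members overlap other genes, and with no strand stated such reads cannot be told apart. Some members are not reported by name here but enter the counts and sums.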

Additional observations from a re-analysis of the deposited data

How the results depend on the processing

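No paired analysis was possible because the labels gave no replicate numbers and genotypes were not tested. Plates 524s and 529s each held a pair of genotypes, and their values within the plate are given. The log2 ratio of the ribosomal protein share in macrophages, -0.40 for KO over WT, was -0.26 with the mean of the cells' own CPM and -0.26 with cells thinned to 50000 counts. That of Het over WT was -0.34 with the cells' own CPM and -0.0025 with Rn18s kept. On plate 529s alone it was -0.33 by the sums and -0.12 by the median over single cells. That of KO over Het was -0.35 with Rn18s kept. In microglia KO over Het was -0.20 with Rn18s kept and 0.19 on plate 524s alone, and Het over WT was 0.047 on plate 529s alone. Macrophages over microglia in Het was 0.13 with Rn18s kept. Keeping Rn18s moved the median of all genes by 0.47 for Het over WT in macrophages.

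Alternatives chosen after seeing the data changed the set of genes. Without the 6 top genes KO over WT was -0.20 in macrophages and turned to 0.026 in microglia, and KO over Het was 0.21 and 0.22. With the genes lacking a unique window alone, macrophages gave -0.014 for KO over WT and -0.015 for Het over WT, microglia turned to 0.070 for KO over WT and gave 0.51 for KO over Het and -0.44 for Het over WT, and macrophages over microglia was -0.41 in KO, 0.095 in Het and -0.33 in WT. The cause was not tested.

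Leaving out each plate in turn gave -0.48 to -0.26 for KO over WT, -0.043 to 0.21 for KO over Het and -0.55 to -0.34 for Het over WT in macrophages. In microglia it gave -0.35 to -0.12, -0.077 to 0.063 and -0.36 to -0.13. Macrophages over microglia ran from -0.050 to 0.030 in KO, from -0.14 to -0.043 in Het and from 0.078 to 0.15 in WT. The number of members apart ran from 0 to 2 for KO in either cell type. In macrophages it was 2 without plate 060s (5.41%, against 7.17% of all genes higher and 13.1% lower). It was 1 there without plate 524s (2.63%, against 4.09 and 4.92%) or 529s (2.86%, against 1.55 and 3.99%). In microglia it was 2 without plate 060s (5.13%, against 4.96 and 6%) or 524s (5.26%, against 6.32 and 4.57%). For Het macrophages it ran from 6 without plate 530s (16.2%, against 4.46 and 6.87%) to 13 without plate 056s (35.1%, against 6.45 and 13.1%). For Het microglia it ran from 1 to 8 (7 without plate 059s, where 10.9 and 6.56% of all genes were higher and lower, and 8 without plate 529s, 8.52 and 10.1%). With fewer pools these rules are met more easily by every gene.

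The 9 members apart in Het macrophages (25%, against 3.64% of all genes lower) became 1 with Rn18s kept (4%, 0.99%), 5 with TMM factors (13.9%, 2.94%), 4 with DESeq2 size factors (11.1%, 2.65%), 3 with a floor of 50 CPM (20%, 3.12%), 4 with a pseudocount of 10 (11.1%, 2.87%) and 3 with a fold limit of 2 (8.33%, 1.56%). The 1 in Het microglia became 0 with the mean of pools, 13 of 40 on plate 529s alone (28.8 and 26.4% of all genes higher and lower), 2 of 89 with no floor (0.745 and 0.784%) and 0 at a fold limit of 2. The 0 in KO macrophages became 19 of 35 on plate 524s alone (28.9 and 31.7% of all genes higher and lower). It became 1 of 89 with no floor (1.12%, against 0.532 and 0.312%) and 2 of 36 with the smaller fold limit tried (5.56%, against 2.06 and 2.7%). The 0 in KO microglia became 14 of 36 on plate 524s alone (25.1 and 24.3%) and 3 of 89 with no floor (3.37%, against 0.715 and 0.233%). It became 1 each with thinning (2.7%, against 1.31 and 0.94%) and at the smaller fold limit (2.63%, against 2.25 and 1.29%). With copies added it was also 1 (2.5%, with shares of all genes close to those without copies). By the rule added after the shares had been seen, the 13 members with KO below WT were 8 with TMM and 7 with DESeq2 factors. The 5 with KO and Het below WT (13.9%, against 2.44% of all genes) were 2 with Rn18s kept (7.69%, 0.651%) and 3 with TMM (8.33%, 1.84%) or DESeq2 factors (8.33%, 1.57%). Without a plate these counts were 13 to 22 and 5 to 12 (12 without plate 059s or 524s, against 4.36 and 5.38% of all genes, and 8 without 056s or 529s, 4.82 and 7.58%), a rise that the rule allows with fewer pools.

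Rps27l took 38.1% of its pair in macrophages and 34.0% in microglia with copies added. Without a plate the paralogue shares in macrophages and microglia ran from 49.5 to 53.0% and 63.0 to 65.5% for Rpl7l1, 6.27 to 7.42% and 7.31 to 11.2% for Rpl22l1, 86.6 to 93.8% and 78.5 to 85.4% for Rps27l, 32.7 to 44.1% and 37.7 to 44.9% for Rps4l, 1.61 to 11.5% and 0 to 0.372% for Rpl39l, 0.0214 to 0.0942% and 0 to 0% for Rpl3l, and 0.0577 to 0.238% and 0 to 0% for Rpl10l. The Het over WT medians of lists in macrophages were 0.10 with Rn18s kept and -0.030 on plate 529s alone for elongation factors, 0.36 and -0.40 for initiation factors, and 0.16 with Rn18s kept for biogenesis genes. In microglia that of initiation factors was 0.25 on plate 529s alone. Without a plate, elongation factors gave -0.47 to -0.059 in macrophages and -0.31 to 0.18 in microglia, and initiation factors -0.41 to -0.056 and -0.22 to 0.086, and for KO over WT initiation factors of macrophages gave -0.50 to 0.037. Depth limits low members: 35 cells of both types had under 50000 counts and could not be thinned.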

Other observations

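The 14 cells of the type named 7 held ribosomal protein shares of 0.257 to 0.596% in 6 KO cells (median 0.327%), 0.224 to 0.334% in 4 Het cells (median 0.280%) and 0.309 to 0.577% in 4 WT cells (median 0.445%), ranges that overlap. Some of these cells were very shallow: the lowest gene counts were 3107 in KO, 11173 in Het and 1940 in WT. A single cell held 49.3% of the ribosomal protein counts in KO, 59.7% in Het and 86.5% in WT.

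Apart from Rplp0 and Rps27, the copies of all other members took 2.66 to 5.00% of the counts of members and copies in macrophage pools and 3.12 to 4.43% in microglia pools. With Rplp0 and Rps27 included the range was 3.19 to 8.33% in macrophage pools and 3.32 to 6.97% in microglia pools, lowest on plate 530s and highest on plate 060s in both.

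Across single cells the ribosomal protein share had a Spearman correlation of 0.24 with the Rn18s share and -0.08 with gene counts in 400 macrophages, and of 0.09 and -0.25 in 215 microglia, cells that share plates and genotypes.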
